A study of Nicotiana tabacum with 9 samples.

Results

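In tobacco pollen, 134 annotated genes had lower transcript levels in both *ATG2*-silenced and *ATG5*-silenced pollen than in wild type (WT) pollen. They were taken from 15191 annotated genes with a WT mean of 1 to 500 FPKM, out of 69099 annotated genes and 76785 identifiers in all. FPKM, the unit of every level given here, counts fragments relative to the length of the transcript and to the total of mapped fragments, and was divided here by a scaling factor for each library. A gene was a member when its lowest WT library lay above all 6 silenced libraries and the mean of each silenced line was at most the WT mean divided by 1.5. The rule left out 4 genes by name, an hsp90 gene, *NtHsp70*, *VPS34* and *ATG2*, of which the first 3 met it. The members were thus chosen by the measured levels of all 9 libraries, so the comparisons of each silenced line with WT are given as descriptions without a test. Both comparisons share the same 3 WT libraries. For the members, only the direct comparison of the silenced lines was tested, and the rule bounds the levels of both lines from above in it.

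The series holds 9 RNA-seq libraries from pollen labelled as bicellular, with 3 libraries each from WT plants (*Nicotiana tabacum* cv. Petite Havana SR1), *ATG2* RNAi plants and *ATG5* RNAi plants grown in a glasshouse. The libraries of a genotype are independent biological replicates. The promoter that drives the RNAi constructs, the number of independent lines and the number of plants behind a library are not given in the sources used here. Since bulk pollen was sequenced, fewer cells of a type and less RNA per cell cannot be told apart.

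Autophagy delivers cytoplasm to the vacuole for breakdown and reuse. ATG2 is a lipid transfer protein that acts with ATG9 in the growth of the phagophore, and ATG5 is joined to ATG12 in the conjugate that promotes the lipidation of ATG8. Pollen is built within the anther, where the tapetum feeds it, and stores the transcripts that it needs for germination. Tobacco is an allotetraploid, so that many genes exist in near-identical copies from both parental genomes, and reads of such copies can be divided between them by the quantification.

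Scaling factors were 0.978 to 1.04 in WT, 1.06 to 1.11 in *ATG2*-silenced and 0.751 to 0.791 in *ATG5*-silenced pollen. Values were deposited with 1 decimal for WT replicate 3 and the *ATG2*-silenced libraries and with 2 decimals for the others, so that levels under 1 FPKM are coarse. Read counts were not part of these tables, the depth behind a value is therefore unknown, and a 0 is only a value listed at 0. The silenced genes followed the labels: *ATG2* was at 1.20, 1.06 and 0.863 FPKM in WT and at 0.188, 0.270 and 0.180 FPKM in *ATG2*-silenced pollen, and *ATG5* (GeneID:107810645) was at 1.06, 1.53 and 1.53 FPKM in WT and at 0.240, 0.293 and 0.126 FPKM in *ATG5*-silenced pollen. The 5 pollen marker genes found by name summed to 25508 to 26838 FPKM in WT, 24439 to 26857 FPKM in *ATG2*-silenced and 50764 to 58766 FPKM in *ATG5*-silenced pollen. In *ATG5*-silenced pollen *ntp101*, *ntp201* and *ntp805* were at 173% to 371% of WT, whereas the pectin methylesterase *PPME1* was at 68.2% and the profilin *PRO1* at 51.5%. Of the anther wall list a single gene was matched, *TAP46*, which encodes a regulator of protein phosphatases and is no tapetum gene, so tapetum transcripts were not analysed here.

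Most members were weakly expressed. Their median WT mean was 3.07 FPKM against 4.91 FPKM over all 15191 genes in the range, 44 lay between 1 and 2 FPKM and 44 between 2 and 5 FPKM, and 9 lay between 50 and 500 FPKM. In *ATG2*-silenced pollen the members stood at a median of 50.6% of the WT mean (quartiles 32.5% and 61.0%), from 3.46% up to the limit set by the rule. In *ATG5*-silenced pollen the median was 37.3% (quartiles 16.0% and 52.2%), and 6 members were listed at 0 in all 3 libraries. At or below 50% of WT were 66 members in *ATG2*-silenced pollen, 94 in *ATG5*-silenced pollen and 56 in both, and at or below 25% in both were 16. The *ATG5*-silenced mean was below the *ATG2*-silenced mean for 102 members and above it for 32. The same order of means was not counted over the genes in the range, so nothing particular to the members is read from it. WT libraries varied more than usual, with a median coefficient of variation of 18.1% against 10.9% over the genes in the range, and replicate 3 was the lowest WT library in 94 of the 134 members (70.1%, against 41.6% in the range). The rule used these WT values, so both comparisons with the range are descriptions only.

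**Figure D1:**
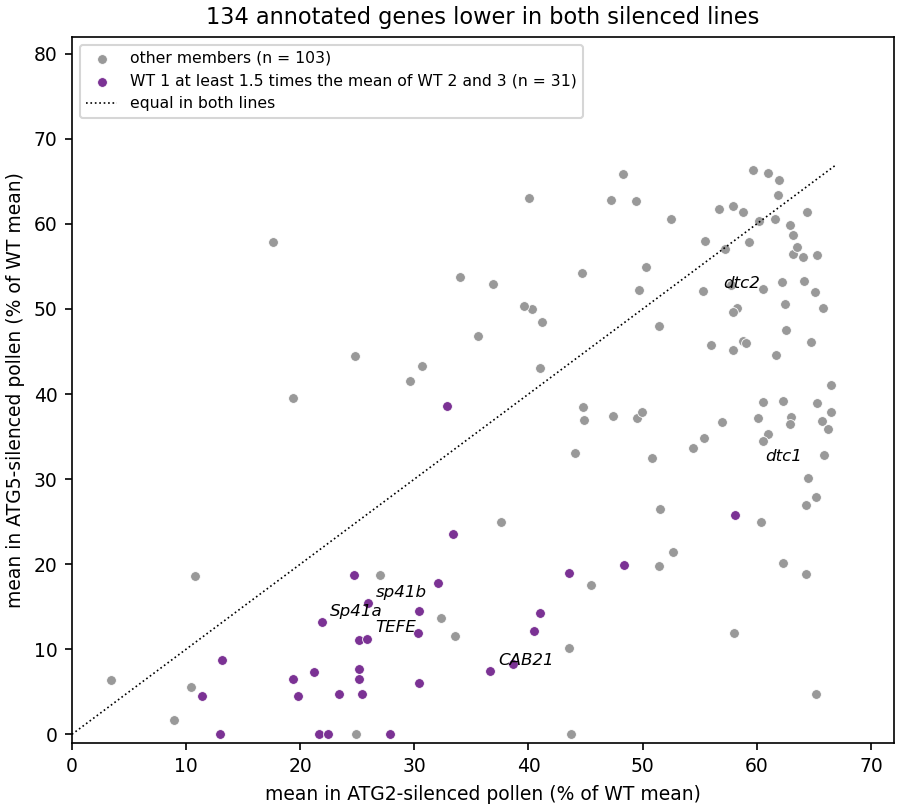
Mean level of each of the 134 members in *ATG2*-silenced pollen (horizontal axis) and in *ATG5*-silenced pollen (vertical axis), both as a percentage of the WT mean. Purple points are the 31 members whose level in WT replicate 1 was at least 1.5 times the mean of WT replicates 2 and 3, the dotted line marks equal levels in both lines, and the 102 points under it were lower in *ATG5*-silenced pollen.

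The condition on overlap alone, with the lowest WT library above all silenced libraries, held for 7.08% of the genes in the range. This condition chose the members, so nothing is read from it.

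Of the members, 6 carry a gene name in the reference annotation, and a pair of these encode mitochondrial dicarboxylate/tricarboxylate carriers, which exchange malate, 2-oxoglutarate and citrate across the inner membrane. *dtc1* (GeneID:107815847) was at 65.4, 57.5 and 54.5 FPKM in WT, at 38.2, 38.0 and 40.7 FPKM in *ATG2*-silenced pollen and at 19.8, 17.6 and 20.8 FPKM in *ATG5*-silenced pollen. Its 3 genotypes formed 3 separate levels, with a mean of 65.9% of WT in *ATG2*-silenced and 32.8% in *ATG5*-silenced pollen. Between the silenced lines *dtc1* was lower in *ATG5*-silenced pollen in 3 of 3 libraries (log2 change −0.99 ± 0.09 SE, limma, Benjamini-Hochberg adjusted p = 3.0e-05), just short of the fold of 2 that a call required beside an adjusted p under 0.05. It passed that fold under 7 of 21 alternatives, among them FPKM as deposited (−1.48), equal totals (−1.35) and quantile normalization (−1.13).

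*dtc2* (GeneID:107783696, also named *momc1*) was at 19.2, 18.3 and 20.4 FPKM in WT, at 13.7, 11.0 and 11.3 FPKM in *ATG2*-silenced pollen and at 12.0, 8.85 and 9.95 FPKM in *ATG5*-silenced pollen. Both silenced lines lay below WT and overlapped each other, at 62.2% and 53.2% of the WT mean. Their difference was a log2 change of −0.22 (95% interval −0.51 to 0.07, adjusted p = 0.17, limma). *dtc3* (GeneID:107782217), the other carrier of this family with a name, was no member and stayed between 0.0638 and 0.378 FPKM in the 9 libraries. The carrier list was added after the values had been seen.

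The remaining 4 named members shared a profile with a high WT replicate 1. *Sp41a* (GeneID:107763655) and *sp41b* (GeneID:107777766) encode β-1,3-glucanases first described as abundant proteins of the tobacco style. *Sp41a* was at 14.1, 5.44 and 4.60 FPKM in WT, at 1.88, 0.810 and 2.61 FPKM in *ATG2*-silenced pollen and at 2.66, 0.191 and 0.341 FPKM in *ATG5*-silenced pollen. WT replicate 1 exceeded the other WT libraries and *ATG5*-silenced replicate 1 exceeded the other *ATG5*-silenced libraries, and the SD in WT was 5.28 FPKM around a mean of 8.06 FPKM. *sp41b* was also highest in replicate 1 of WT and of *ATG5*-silenced pollen, at a lower level, with 2.11, 1.24 and 0.863 FPKM in WT, 0.282, 0.270 and 0.539 FPKM in *ATG2*-silenced pollen and 0.599, 0.0510 and 0 FPKM in *ATG5*-silenced pollen. As near relatives these genes may share reads. Between the silenced lines the log2 change was −0.80 (95% interval −2.29 to 0.69) for *Sp41a* and −0.35 (−1.12 to 0.42) for *sp41b*, with adjusted p of 0.33 and 0.41 (limma).

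*TEFE* (GeneID:107815999), an ethylene-forming enzyme that makes ethylene from its precursor ACC, was at 3.83, 2.03 and 1.92 FPKM in WT, at 0.752, 0.450 and 0.809 FPKM in *ATG2*-silenced pollen and at 0.772, 0.102 and 0 FPKM in *ATG5*-silenced pollen. *CAB21* (GeneID:107776229, also named *LHCP*) encodes a chlorophyll a/b binding protein of the light-harvesting antenna, which is typical of green tissue. It was at 1.95, 1.21 and 0.863 FPKM in WT, at 0.752, 0.360 and 0.360 FPKM in *ATG2*-silenced pollen and at 0.146, 0.0765 and 0.0759 FPKM in *ATG5*-silenced pollen. For both genes replicate 1 was the highest WT library, and *CAB21* was lower in all 3 *ATG5*-silenced libraries than in any *ATG2*-silenced library (log2 change −0.70 ± 0.24 SE, adjusted p = 0.035, limma). On this scale the change was under the fold required for a call, but the 0.5 added to each level understates changes at levels this low.

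**Figure D2:**
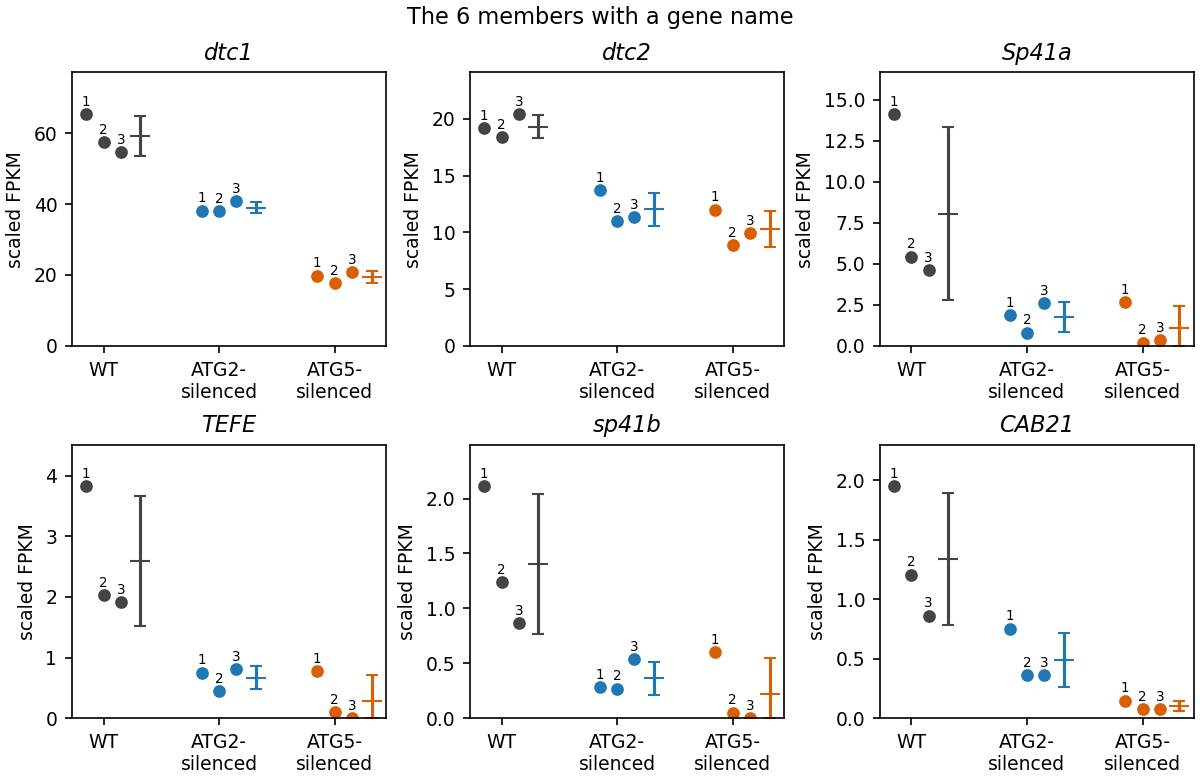
Scaled FPKM of the 6 members with a gene name in each library (points, numbered by replicate), with the mean and SD of the 3 libraries of a genotype beside them (bars, drawn down to 0 at most). *dtc1* and *dtc2* have tight replicates, with *dtc1* at 3 separate levels, whereas the other 4 are highest in WT replicate 1.

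A high WT replicate 1 was a common property. In 31 of the 134 members (23.1%) the level in WT replicate 1 was at least 1.5 times the mean of WT replicates 2 and 3, which was so for 2.49% of the genes in the range. This division was made after the values had been seen, and only 2 members lay between 1.5 and 1.7 times and 5 between 1.3 and 1.5 times. A high WT replicate 1 raises the WT mean and so helps a gene to meet the fold of the rule. The share among the members is therefore a description only. The 31 members had median levels of 3.56, 1.22 and 1.15 FPKM in the WT libraries, 0.658, 0.450 and 0.809 FPKM in the *ATG2*-silenced libraries and 0.439, 0.0765 and 0.0885 FPKM in the *ATG5*-silenced libraries. They varied together in the silenced lines too: *ATG5*-silenced replicate 1 was the highest library of its genotype in 22 of the 31, and *ATG2*-silenced replicate 2 was the lowest in 23. Over the genes in the range this was so for 35.7% and 29.9%. Among the other 103 members those counts were 19 and 41, and the WT medians were 3.51, 3.65 and 3.16 FPKM.

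**Figure D3:**
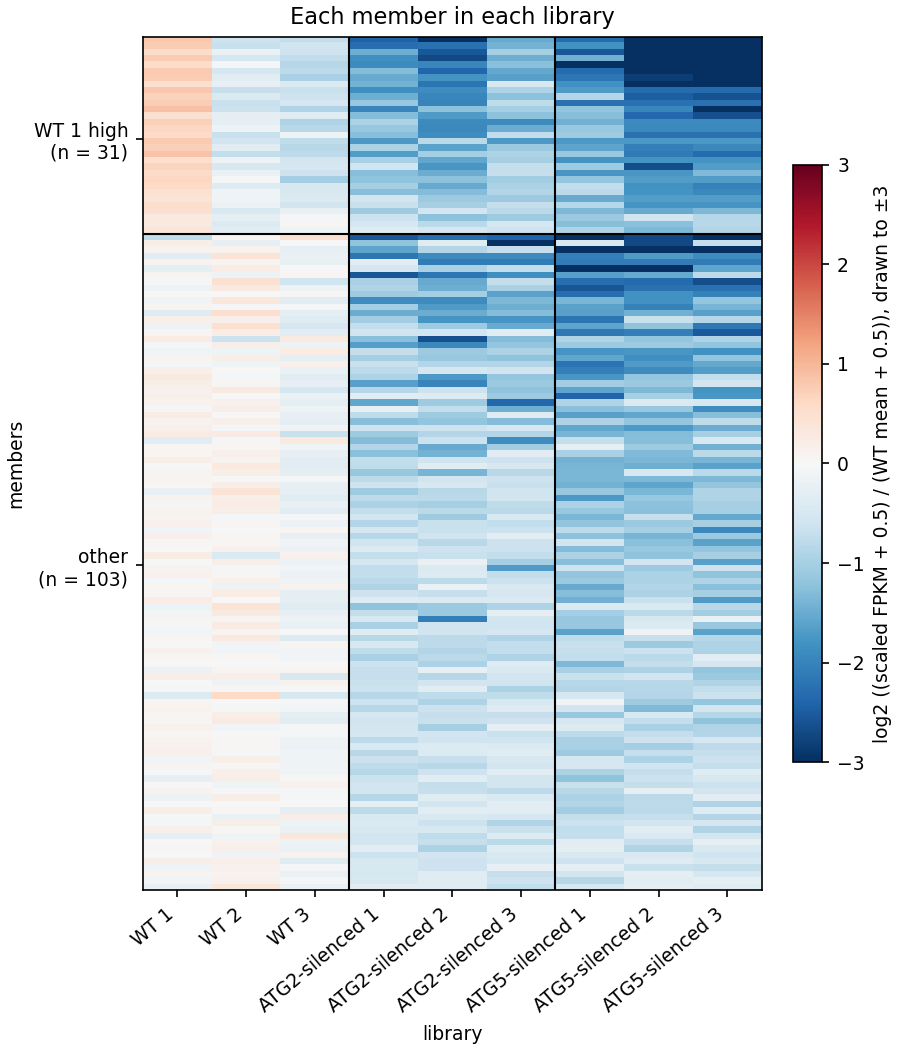
Level of each member (rows) in each library (columns) as the log2 ratio of scaled FPKM to the WT mean, after adding 0.5 to both and drawn to ±3. The upper block holds the 31 members with a high WT replicate 1, which are darkest in *ATG5*-silenced replicates 2 and 3, and the lower block holds the other 103.

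The most abundant of the 31 were GeneID:107801516 and GeneID:107788879. GeneID:107801516 was at 75.1, 27.8 and 25.4 FPKM in WT, at 7.52, 5.04 and 14.7 FPKM in *ATG2*-silenced pollen and at 8.23, 0.982 and 0.215 FPKM in *ATG5*-silenced pollen. GeneID:107788879, named here after its values were seen, was at 54.5, 19.9 and 21.0 FPKM, at 6.11, 6.39 and 11.5 FPKM and at 8.68, 1.29 and 0.645 FPKM in the same order. In both genes *ATG5*-silenced replicate 1 reached the range of the *ATG2*-silenced libraries while replicates 2 and 3 lay far below it. The difference between the silenced lines for GeneID:107801516 was a log2 change of −2.06 (95% interval −4.24 to 0.12, adjusted p = 0.098, limma), and without *ATG5*-silenced replicate 1 it was −3.08 with an adjusted p of 0.0070 and was called (adjusted p of 0.0032 to 0.27 over all alternatives).

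Over the 9 libraries, the log2 profile of *Sp41a* was most like those of GeneID:107808257 (r = 0.99), GeneID:107784534 (r = 0.99) and *TEFE* (r = 0.98) among the members. After each genotype's mean had been taken off, the median correlation with *Sp41a* was 0.80 over the 31 members and −0.04 over the other 103, against −0.0021 over the genes in the range. These are descriptions over 9 libraries that include the division by WT replicate 1.

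By the rule every member lies below each WT library, so the values without WT replicate 1 describe only how large the difference is. The median of the 31 was 25.9% of WT in *ATG2*-silenced and 8.79% in *ATG5*-silenced pollen over all WT libraries, and 40.7% and 13.9% against the mean of WT replicates 2 and 3. Without WT replicate 1 the rule still held for 19 of the 31 and for 89 of the other 103. On the main scaling, the fold of 1.5 against the mean of WT replicates 2 and 3 held for 30 of the 31 in *ATG2*-silenced pollen. In *ATG5*-silenced pollen it held for all 31, and for the other 103 these counts were 90 and 101. A gene also left the rule when its WT mean without replicate 1 fell under 1 FPKM, and such genes were not counted apart. Of the 31, 27 are protein-coding, 4 have no entry in the reference table and none is a long non-coding RNA.

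Of the 15 genes on a list typical of green tissue, *CAB21* is a member, none was at 0 in all libraries, and *PAA1* was found by its letters only and encodes a proteasome subunit. The other 13 summed to 4.62, 1.79 and 1.82 FPKM in WT, to 1.41, 0.7201 and 1.17 FPKM in *ATG2*-silenced pollen and to 0.945, 0.293 and 0.1896 FPKM in *ATG5*-silenced pollen. Like the medians of the 31 members, these sums were highest in replicate 1 in WT and in *ATG5*-silenced pollen and lowest in replicate 2 in *ATG2*-silenced pollen, where however replicate 1 and not replicate 3 was the highest. The part of such transcripts in the pattern of the 31 members was not tested. Of 16 named glucanase, chitinase and pathogenesis-related genes, a list added after the values had been seen, *Sp41a* and *sp41b* are members and 6 were at 0 in all libraries. The 14 others summed to 6.23 to 8.78 FPKM in WT, 5.83 to 9.44 FPKM in *ATG2*-silenced and 1.43 to 2.49 FPKM in *ATG5*-silenced pollen, so without the members WT and *ATG2*-silenced pollen overlapped. The 5 ethylene synthesis and receptor genes listed with *TEFE*, also afterwards, summed to 1.15 to 1.898 FPKM, 1.44 to 1.62 FPKM and 0.7397 to 0.998 FPKM in the same order, and again only *ATG5*-silenced pollen lay apart from WT. The chitinase *CHN-A* (GeneID:107759005) is among the 14 others above and made up most of their sum in WT and in *ATG2*-silenced pollen. It was at 5.28, 6.61 and 4.60 FPKM in WT, at 4.70, 6.30 and 8.45 FPKM in *ATG2*-silenced pollen and at 0.812, 1.27 and 0.721 FPKM in *ATG5*-silenced pollen. The silenced lines differed in *CHN-A* by a log2 change of −2.27 ± 0.23 SE (adjusted p = 5.3e-05, limma).

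**Figure D4:**
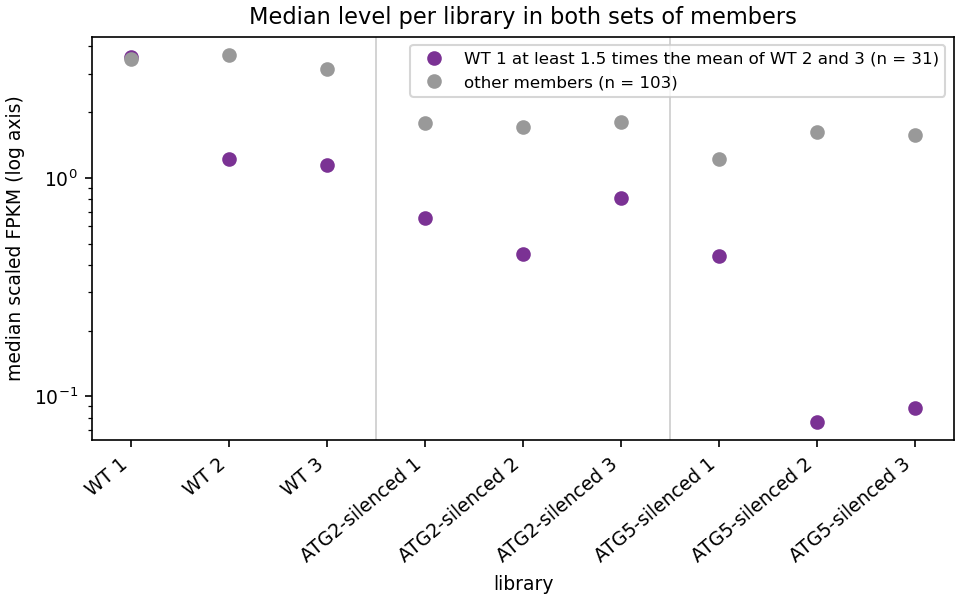
Median scaled FPKM (log axis) in each library over the 31 members with a high WT replicate 1 (purple) and over the other 103 members (grey). The purple medians are 3.56 FPKM in WT replicate 1 and 1.22 and 1.15 FPKM in the other WT libraries, and within *ATG5*-silenced pollen replicate 1 lies above replicates 2 and 3, while the grey medians vary little within a genotype.

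The most abundant members differed in the order of the silenced lines. GeneID:107810940, the highest, was at 383, 369.7 and 335 FPKM in WT, at 213, 204 and 247 FPKM in *ATG2*-silenced pollen and at 256, 239.9 and 222 FPKM in *ATG5*-silenced pollen. The silenced lines overlapped, at 61.0% and 66.0% of WT, with a difference of log2 0.12 (95% interval −0.09 to 0.32, adjusted p = 0.31, limma). GeneID:107795717 was at 89.1, 81.0 and 69.2 FPKM in WT, at 46.2, 54.9 and 53.0 FPKM in *ATG2*-silenced pollen and at 18.8, 21.2 and 24.5 FPKM in *ATG5*-silenced pollen. Like *dtc1* it had 3 separate levels, and the difference between the silenced lines was called (log2 change −1.24 ± 0.13 SE, adjusted p = 5.2e-05).

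The order of the silenced lines was the reverse in GeneID:107797956, which was at 62.3, 56.4 and 45.9 FPKM in WT, at 17.4, 13.6 and 25.0 FPKM in *ATG2*-silenced pollen and at 26.5, 25.2 and 36.8 FPKM in *ATG5*-silenced pollen. Each *ATG5*-silenced library exceeded each *ATG2*-silenced library (log2 change 0.67 ± 0.23 SE, adjusted p = 0.035, limma), by less than the fold for a call. GeneID:107789107 and GeneID:107824942 resembled *dtc1* in order, with WT means of 54.4 ± 8.49 and 51.8 ± 8.90 FPKM (SD, n = 3), 61.0% and 57.9% of WT in *ATG2*-silenced pollen and 35.3% and 45.2% in *ATG5*-silenced pollen. GeneID:107820838, which lay nearest to the fold limit, was at 108, 117 and 87.4 FPKM in WT, at 67.9, 74.4 and 65.3 FPKM in *ATG2*-silenced pollen and at 38.3, 34.6 and 45.3 FPKM in *ATG5*-silenced pollen.

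The members with the lowest levels in both silenced lines relative to WT were all weakly expressed, apart from GeneID:107801516. GeneID:107827108 was at 1.29, 2.47 and 1.44 FPKM in WT, at 0, 0.0900 and 0.0899 FPKM in *ATG2*-silenced pollen and at 0.0399, 0.191 and 0.101 FPKM in *ATG5*-silenced pollen. GeneID:107784918 was at 2.23, 4.24 and 5.75 FPKM in WT, at 0.282, 0.450 and 0.360 FPKM in *ATG2*-silenced pollen and at 0, 0.204 and 0 FPKM in *ATG5*-silenced pollen. These were the only 2 members at or below 10% of WT in both lines, and in neither was WT replicate 1 the highest WT library. GeneID:107773497 and GeneID:107810466 were also highest in WT replicate 2 (1.84 and 2.26 FPKM) and stood at 10.4% and 10.8% of WT in *ATG2*-silenced and at 5.52% and 18.7% in *ATG5*-silenced pollen. GeneID:107775109, GeneID:107779971, GeneID:107788371, GeneID:107805711 and GeneID:107796152 belong to the 31 with a high WT replicate 1, had WT means of 1.10 to 1.98 FPKM and stood at 11.4% to 19.8% of WT in *ATG2*-silenced and at 0 to 8.79% in *ATG5*-silenced pollen.

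In the direct comparison, 11 of the 133 members tested were called lower in the *ATG5*-silenced line, where 9.66% of all 27836 tested genes were and 10.9% of those with a WT mean in the range. A single member was called higher, where 14.3% of all tested genes and 8.95% of those in the range were. By adjusted p alone 33 members were lower and 3 higher, with backgrounds of 27.5% and 26.8% over all tested genes and 35.1% and 24.2% in the range. The count of members called lower was thus near the background share. By adjusted p alone the share of members lower was below that in the range. The rule bounds both lines from above by the same limit, so nothing is read from the few members called higher. Every *ATG5*-silenced library lay below every *ATG2*-silenced library in 42 members, where 40.3% of the genes in the range did so, and the reverse held in 8, where 27.5% did so. The median log2 change was −0.31 over the members and −0.07 over all tested genes.

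GeneID:107772474 differed most. It was at 4.46, 4.44 and 3.36 FPKM in WT, at 1.03, 1.98 and 2.34 FPKM in *ATG2*-silenced pollen and was listed at 0 in all 3 *ATG5*-silenced libraries (adjusted p = 7.6e-05, limma on log2 of the scaled FPKM plus 0.5). GeneID:107764785 was at 2.43, 2.88 and 1.82 FPKM in WT, at 1.41, 1.44 and 1.80 FPKM in *ATG2*-silenced pollen and at 0.146, 0.191 and 0 FPKM in *ATG5*-silenced pollen. It stood at 65.2% of WT in *ATG2*-silenced pollen and at 4.73% in *ATG5*-silenced pollen (log2 change −1.75 ± 0.20 SE, adjusted p = 9.3e-05). GeneID:107773230 was at 5.92, 8.68 and 7.48 FPKM in WT, at 5.08, 3.51 and 4.23 FPKM in *ATG2*-silenced pollen and at 0, 0.485 and 2.14 FPKM in *ATG5*-silenced pollen (log2 change −2.12 ± 0.51 SE, adjusted p = 0.0081).

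GeneID:107822079 and GeneID:107775918 belong to the 31 members with a high WT replicate 1. Their log2 changes were −1.56 ± 0.56 SE and −1.54 ± 0.47 SE with adjusted p of 0.044 and 0.023 (limma). For GeneID:107822079 the *ATG5*-silenced libraries at 1.304, 0 and 0.152 FPKM overlapped the *ATG2*-silenced libraries at 1.88, 0.900 and 4.05 FPKM, and for GeneID:107775918 the *ATG5*-silenced libraries at 0.998, 0.332 and 0.164 FPKM narrowly overlapped the *ATG2*-silenced libraries at 2.63, 0.990 and 3.87 FPKM. Without *ATG2*-silenced replicate 3 neither was called, with adjusted p of 0.13 and 0.074, and over all alternatives the adjusted p ranged from 0.0091 to 0.14 and from 0.0066 to 0.076. Another 5 members called lower outside the rule for naming were GeneID:107797755, GeneID:107770590, GeneID:107829106, GeneID:107773960 and GeneID:107765134, of which the first 2 are long non-coding RNAs.

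By the reference annotation, which is of another cultivar (K326), 100 members are protein-coding, 11 are long non-coding RNAs, 2 are pseudogenes and 21 had no entry. The shares of 74.6%, 8.21%, 1.49% and 15.7% compare with 81.3%, 6.08%, 0.625% and 11.6% of the genes in the range. The most abundant non-coding member was GeneID:107807842, at 180.4, 199 and 116 FPKM in WT, at 91.2, 107 and 71.6 FPKM in *ATG2*-silenced pollen and at 54.5, 64.5 and 47.5 FPKM in *ATG5*-silenced pollen. Replicate 3 was its lowest library in each genotype, and the difference between the silenced lines did not reach the fold for a call (log2 change −0.68 ± 0.22 SE, adjusted p = 0.030, limma). GeneID:107797755 was at 16.8, 22.5 and 16.7 FPKM in WT, at 9.78, 6.39 and 9.26 FPKM in *ATG2*-silenced pollen and at 2.72, 3.56 and 3.58 FPKM in *ATG5*-silenced pollen, 3 levels without overlap (log2 change −1.23 ± 0.19 SE, adjusted p = 0.00053). GeneID:107819273 was at 1.80, 1.77 and 1.34 FPKM in WT and was listed at 0 in every silenced library but *ATG2*-silenced replicate 1, at 1.22 FPKM.

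The only member called higher in *ATG5*-silenced pollen was GeneID:107795367, a neighbour of *VPS34* in the gene order of the K326 reference. *VPS34* encodes the phosphatidylinositol 3-kinase that acts early in autophagy and, as said, was left out by the rule. GeneID:107795367 lies 3 places from it and was at 2.29, 2.30 and 1.63 FPKM in WT, at 0.376, 0.720 and 0 FPKM in *ATG2*-silenced pollen and at 0.865, 1.39 and 1.34 FPKM in *ATG5*-silenced pollen. *VPS34* was at 3.36, 2.72 and 3.36 FPKM, at 0.846, 1.71 and 0 FPKM and at 2.40, 2.07 and 1.504 FPKM in the same order. In both genes *ATG2*-silenced replicate 2 was the highest and replicate 3 was listed at 0. The log2 change of GeneID:107795367 between the silenced lines was 1.05 ± 0.31 SE (adjusted p = 0.018, limma), and 0.70 (adjusted p = 0.043), under the fold for a call, without *ATG2*-silenced replicate 3.

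The same order of the *ATG2*-silenced libraries extended beyond the members. Of the 51 genes from 25 places before to 25 places after *VPS34*, 43 were in the tables and 14 had a WT mean of at least 0.4 FPKM. In 4 of these 14 genes *ATG2*-silenced replicate 3 was listed at 0, which it was in 0.869% of all 20372 annotated genes with such a WT mean. The neighbourhood was looked at after the values had been seen. The 4 genes include *VPS34*, on which the window is centred, and the member GeneID:107795367, so their share is a description only. The others were GeneID:107764626, 5 places before *VPS34*, and GeneID:107794533, 6 places after it. GeneID:107764626 was at 14.98, 15.2 and 16.6 FPKM in WT, at 5.55, 8.10 and 0 FPKM in *ATG2*-silenced pollen and at 16.3, 14.3 and 15.6 FPKM in *ATG5*-silenced pollen. It was no member, since its *ATG5*-silenced libraries were at the WT level.

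As a percentage of the WT mean, *ATG2*-silenced replicates 1, 2 and 3 were at 35.6%, 52.0% and 0 in GeneID:107764626, at 26.9%, 54.4% and 0 in *VPS34*, at 18.1%, 34.8% and 0 in GeneID:107795367 and at 18.5%, 53.3% and 0 in GeneID:107794533, the last at a WT mean of 0.507 FPKM. Another member within this stretch, GeneID:107795368, 2 places after *VPS34*, did not share the pattern and was at 54.7%, 72.3% and 54.8%. It was at 3.98, 3.69 and 3.16 FPKM in WT, at 1.97, 2.61 and 1.98 FPKM in *ATG2*-silenced pollen and at 1.32, 1.62 and 1.29 FPKM in *ATG5*-silenced pollen. The nearest expressed genes outside the stretch, GeneID:107814052, 16 places before *VPS34*, and GeneID:107824130, 17 places after it, were above 0 in all *ATG2*-silenced libraries. The ends of the stretch were set by the outermost genes at 0, so such genes lie outside it by definition. GeneID:107824130 is a member of the set with a high WT replicate 1, at 2.87, 1.17 and 0.671 FPKM in WT.

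**Figure D5:**
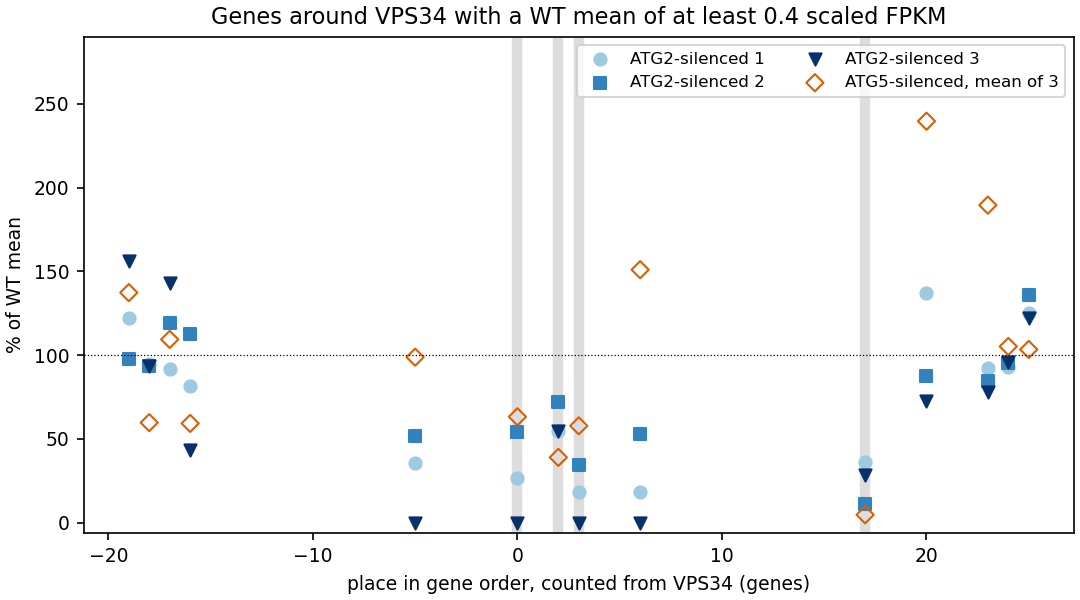
Level of 14 genes around *VPS34* (0 on the horizontal axis, in places of the K326 gene order) as a percentage of the WT mean, for each *ATG2*-silenced library (blue) and for the mean of the *ATG5*-silenced libraries (open diamonds). Grey bands mark *VPS34* and the 3 members. From 5 places before to 6 places after *VPS34*, *ATG2*-silenced replicate 3 is at 0 in 4 of 5 genes. The outermost genes at 0 set the ends of this stretch, where the *ATG5*-silenced means are 39.0% to 151%.

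In all, *ATG2*-silenced replicate 3 was listed at 0 in 5 members (3.73%, against 0.434% of the genes in the range). A 0 in a silenced library helps a gene to meet the rule, so nothing is read from this difference. The most abundant of the 5 members was GeneID:107778954, at 313, 227 and 272 FPKM in WT. It was at 117, 209.9 and 0 FPKM in *ATG2*-silenced pollen and at 198, 40.8 and 167 FPKM in *ATG5*-silenced pollen. It had the order of the *ATG2*-silenced libraries seen around *VPS34* but no entry in the reference, so its place is not known, and its difference between the silenced lines ranged too widely to be told (95% interval of log2 −2.72 to 7.25, adjusted p = 0.40, limma). The others were GeneID:107795367, GeneID:107819273, GeneID:107775109 and GeneID:107779971. Of the 110 members with a place in the K326 order, 5 pairs lay within 20 places of each other: GeneID:107795368 with GeneID:107795367 (1 place), GeneID:107765134 with GeneID:107765126 (5), GeneID:107802883 with GeneID:107797956 (7), GeneID:107795367 with GeneID:107824130 (14) and GeneID:107775918 with GeneID:107773108 (17). GeneID:107765134 and GeneID:107765126 both belong to the 31 members with a high WT replicate 1.

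None of the members belongs to the lists of autophagy machinery (19 genes), chaperones (3), the glutamine family of amino acids (10), MAPK and CDPK kinases (26), pollen and pollen tube genes (17) or transcription factors (38), as far as gene names tell. Few of these genes could be members: 8, 1, 5, 14, 1 and 6 of them had a WT mean in the range and were not left out by name, as *VPS34*, *ATG2* and the hsp90 gene were. Of the 12 autophagy genes tested, 2 were called lower in the *ATG5*-silenced line and 0 higher by limma, with 5 and 2 by adjusted p alone (median log2 change −0.39), where 9.66% and 14.3% of all tested genes were called. The 2 called were the silenced *ATG5* itself and *JOKA2*, a selective autophagy receptor, and the silenced *ATG2* is among the 2 higher by adjusted p alone. For comparison, the mirrored rule found 106 annotated genes higher in both silenced lines, and the rule itself found 67 unannotated transcripts lower in both. Besides GeneID:107820838, the members just inside the fold limit were GeneID:107787868, at 66.5% of WT in *ATG2*-silenced pollen, and GeneID:107789756, at 66.3% in *ATG5*-silenced pollen. The genes just outside were GeneID:107771134 and GeneID:107808430, each at 66.7% of WT in *ATG2*-silenced pollen, and GeneID:107830888, at 66.8%.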

How the data were processed

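Pollen RNA was made into mRNA libraries by the authors and sequenced on the MGIseq2000. The authors cleaned reads with SOAPnuke, aligned them by HISAT2 and Bowtie 2 to Ntab-TN90, and obtained gene levels by RSEM (versions not given in the sources used here). The authors deposited FPKM, 1 table per library. Strand use in counting is not given. Tables hold 1 line without a gene, which was left out.

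Scaling used a median-of-ratios factor per library, from the 14192 genes above 1 FPKM in all 9 libraries. limma 3.58.1 in R 4.3.3 (lmFit, eBayes with trend and robust) was fitted to log2(scaled FPKM + 0.5) of genes that reached 0.5 FPKM in 3 or more libraries, with Benjamini-Hochberg adjustment over all 27836. Fold changes on this scale are understated for weakly expressed genes. FPKM are not counts, so the count test of the study was not used. Alternatives covered scaling, decimals, pseudocount, filter, variance prior, replicate block, and leaving out each library.

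The members, lists and tests were chosen with earlier results of these data known. Named are members with a gene name, the 10 highest in WT, the 10 lowest in both lines relative to WT, up to 5 per direction with the largest called difference between the lines, and those nearest the fold limit. Replicate numbers did not pair libraries (same-number correlations of −0.04 to 0.05). Gene names and gene order come from RefSeq (K326 assembly), another cultivar than the authors' reference, so no coordinates are given. Comparisons of proteins and promoters were planned and not run.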

Additional observations from a re-analysis of the deposited data

Results flagged for a closer look

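The named members called in the direct comparison of the silenced lines are given here because their changes differ between both lines by a test of the difference itself (limma, Benjamini-Hochberg adjusted over all tested genes). As log2 changes of *ATG5*-silenced minus *ATG2*-silenced pollen these were −2.14 for GeneID:107772474, −2.12 for GeneID:107773230, −1.75 for GeneID:107764785, −1.56 for GeneID:107822079, −1.54 for GeneID:107775918 and −1.24 for GeneID:107795717, with adjusted p of 7.6e-05 to 0.044. The value for GeneID:107772474 depends on the added 0.5, since its *ATG5*-silenced libraries are all listed at 0. GeneID:107795367 was the only member in the opposite direction (1.05, adjusted p = 0.018). The calls of GeneID:107772474, GeneID:107773230, GeneID:107764785 and GeneID:107795717 held under all 21 alternatives run, those of GeneID:107775918 under 17, GeneID:107795367 under 14 and GeneID:107822079 under 12. Groups of 3 libraries are too small for a test of single outlying libraries.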

How the results depend on the processing

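The rule gave 134 members, of which 128 were shared with the 210 found after quantile normalization, 108 with the 131 found after rescaling to equal totals and 85 with the 104 found with FPKM as deposited. Requiring a fold of 2 left 56, a looser fold gave 420, and no condition on overlap gave 273. Leaving out each library in turn gave 134 to 305, the highest without WT replicate 3, then 211 without *ATG2*-silenced replicate 3. Each of these settings leaves fewer libraries that can overlap, which does not account for the differences among them. WT replicate 3 was the lowest WT library in 41.6% of the genes in the range, more often than the other WT libraries. In the direct comparison the members called lower in the *ATG5*-silenced line, 11 as reported, were 29 with FPKM as deposited, 22 with equal totals, 24 with a pseudocount of 0.1 and 7 with a pseudocount of 1, and 9 to 14 without single libraries. The first 3 of these settings held all 11. The single member higher became 0 with FPKM as deposited, equal totals, quantile normalization and a pseudocount of 1, and 0 to 2 without single libraries. With the replicate number as a block, 13 were lower and 1 higher, and all 11 were among them. The share of all tested genes called was taken under the main setting only. Counts of called members under the other settings therefore have no background beside them, and nothing about the members is read from their rise or fall. The median ratio to WT moved from 0.506 in *ATG2*-silenced and 0.373 in *ATG5*-silenced pollen to 0.554 and 0.290 with FPKM as deposited, 0.536 and 0.304 with equal totals and 0.472 and 0.332 with quantile normalization. Without single libraries it ranged from 0.483 to 0.533 and from 0.352 to 0.388. Without both WT replicate 1 and *ATG5*-silenced replicate 1, chosen after seeing the data, the rule gave 166 members, 103 of them shared, the medians were 0.532 and 0.402, and 16 were lower and 2 higher in the direct comparison. Over 31 named genes with up to 21 alternatives each, 583 of 628 results kept their side of the threshold, 20 lost and 25 gained a call, and none that was called changed sign. Depth per value is unknown, and values under 1 FPKM rest on 1 or 2 decimals.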
